A study of Homo sapiens with 12 samples.

Results

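The 9 genes described are members of the ETS family of transcription factors that are known or candidate DNA-binding partners of IRF4, namely SPIB, SPI1, ETS1, ETS2, ETV6, FLI1, ELF1, ELK3 and GABPA. They were taken by symbol from a deposited table of 26318 genes, and all 9 had a row and enough counts to be tested. The cells were TMD8, an established human line of activated B cell (ABC) type diffuse large B cell lymphoma. There were 6 libraries from TMD8 with a short hairpin RNA (shRNA) against IRF4 and 6 from TMD8 with a scramble shRNA (control), all from pellets of 24 h. Library names placed 3 libraries of each group in a series 1 and 3 in a series 2. What that number stands for (hairpin, culture or batch), how many hairpins were used and whether replicates were separate cultures are not given in the sources used here. P-values therefore measure the spread between these libraries, which may be technical. The titles named TMD8 throughout, while the number in the cell line label went up by sample, and all libraries were taken as TMD8.

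ETS factors share the ETS domain, a winged helix that reads DNA around the core GGAA. IRF4 binds DNA weakly by itself and is recruited by PU.1 (SPI1) or Spi-B (SPIB) to composite elements, in which an ETS core lies beside a partial IRF site. In activated B cell type lymphoma, Spi-B and IRF4 are known to act together in the survival programme of the tumour cells, and a lasting fall of IRF4 is toxic to such lines.

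Total counts ran from 31.3 to 38.2 M per library (M, 1e6 counts), averaging 34.8 ± 2.10 M with IRF4 shRNA and 34.0 ± 2.04 M in controls (SD, n = 6 each). Levels below are counts per 1e6 counts (CPM) on library sizes scaled by TMM, which assumes that most genes do not move. A floor of 3 counts equals 0.0762 to 0.0980 CPM, and floors cover counting error only. Of 7 B cell lymphoma markers, 7 averaged at least 1 CPM, and their summed level was 11331 to 11803 CPM with IRF4 shRNA and 10459 to 11171 CPM in controls. Across genes, which are not independent replicates, the deviation of a library from its group mean followed the GC content of the transcript. Spearman's rho was 0.24 to 0.31 in IRF4 shRNA libraries of series 1, -0.33 to -0.19 in those of series 2, -0.50 to -0.049 in controls of series 1, and -0.35, 0.43 and 0.60 in controls 4, 5 and 6 of series 2. Values with a GC trend removed are therefore given beside the results it moves. The trend removed was that of deviations from the mean of all libraries fitted, not of the group. GC-linked differences between IRF4 shRNA and control were therefore removed as well. In bulk RNA, fewer cells with a transcript and less of it per cell cannot be told apart.

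IRF4 itself, the target of the hairpin, lies on chromosome 6 from 391752 to 411443 (plus strand, hg38). In series 1 it had 526, 507 and 524 CPM with IRF4 shRNA, against 1426, 1570 and 1485 CPM in controls. In series 2 it had 715, 703 and 688 CPM with IRF4 shRNA, against 1450, 1517 and 1431 CPM in controls. Every IRF4 shRNA library was below every control, and those of series 1 were below those of series 2. The log2 fold change, IRF4 shRNA over control, was -1.53 in series 1 and -1.05 in series 2, and differed between them by 0.46 (edgeR interaction adjusted p = 0.0011).

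Among the 9 ETS genes, 4 rose with IRF4 shRNA (SPI1, FLI1, ELF1 and ELK3), 4 fell (SPIB, ETS1, ETS2 and ETV6) and GABPA did not pass the test. The call is an adjusted p under 0.05 by the edgeR quasi-likelihood test with Benjamini-Hochberg adjustment over the 16437 genes tested. Of all those genes 48.2% were called, 24.2% higher and 23.9% lower, so 8 of 9 stands beside a background in which close to every other gene was called. The median log2 fold change of the 9 was 0.07, beside -0.0056 over all genes tested. On the TMM scale the 6 libraries of each group did not overlap for 6 of the 9 genes (3 higher, 3 lower). This stands beside 30.8% of all genes (16.2% higher, 14.7% lower). For SPIB and ETS1 the separation depends on that scaling, as given below. With library size alone as the scaling, 5250 genes were called higher and 2969 lower over the whole table, against 3983 and 3935 with TMM, and the 9 genes then gave 4 higher and 3 lower, without ETV6. SPI1 moved by more than 1 on the log2 scale, and the other 8 genes by 0.40 or less.

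**Figure D1:**
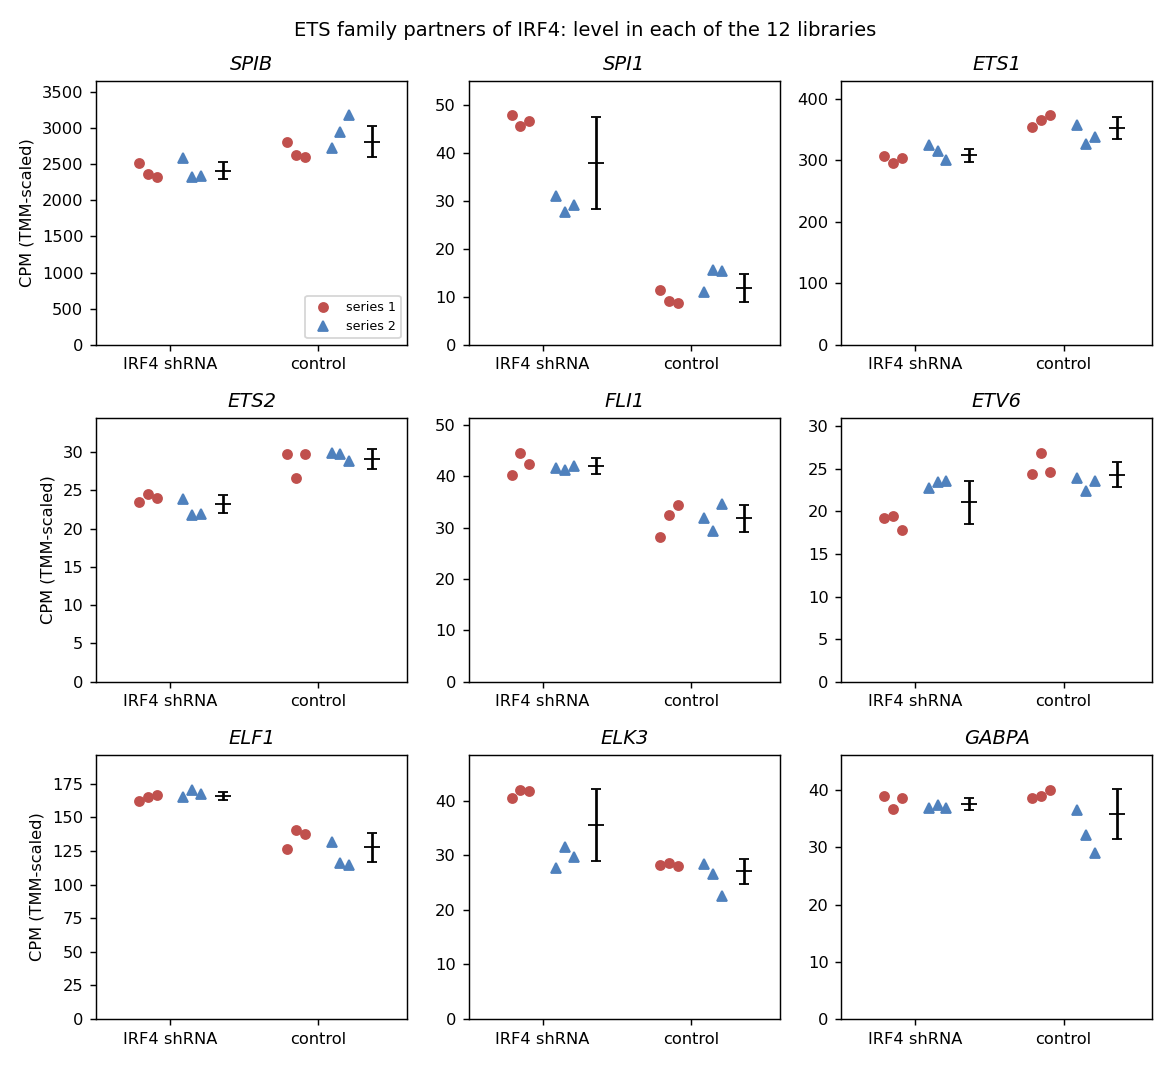
Level of each of the 9 ETS genes in every library (CPM on TMM-scaled library sizes, axes from 0), IRF4 shRNA left of control, with series 1 and series 2 as separate markers. SPI1 is at 27.6 to 47.8 CPM in IRF4 shRNA libraries and 8.72 to 15.6 CPM in controls, and ELK3 and ETV6 separate from their controls in series 1 and overlap them in series 2.

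Sequence is shown for 3 of these genes because they stand for the abundant gene that fell, another gene that fell and a gene that rose. Each stretch is the 250 bases before the transcription start in RefSeq (GRCh38.p14), 5′ to 3′ on the strand of the gene, with every ETS core GGAA, or TTCC for the other strand, in capitals. The SPIB stretch is chr19:50418688-50418937 (plus strand), that of ETS2 is chr21:38804933-38805182 (plus strand) and that of ELF1 is chr13:41061387-41061636 (minus strand).
SPIB: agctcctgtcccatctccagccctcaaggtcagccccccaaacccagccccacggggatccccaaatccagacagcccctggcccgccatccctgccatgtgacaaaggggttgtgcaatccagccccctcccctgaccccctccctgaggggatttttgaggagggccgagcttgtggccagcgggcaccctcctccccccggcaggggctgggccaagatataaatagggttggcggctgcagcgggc
ETS2: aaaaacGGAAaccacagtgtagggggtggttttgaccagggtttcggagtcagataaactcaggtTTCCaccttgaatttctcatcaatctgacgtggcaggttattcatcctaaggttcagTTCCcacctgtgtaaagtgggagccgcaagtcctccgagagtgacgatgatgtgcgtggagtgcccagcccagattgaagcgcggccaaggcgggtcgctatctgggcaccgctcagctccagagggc
ELF1: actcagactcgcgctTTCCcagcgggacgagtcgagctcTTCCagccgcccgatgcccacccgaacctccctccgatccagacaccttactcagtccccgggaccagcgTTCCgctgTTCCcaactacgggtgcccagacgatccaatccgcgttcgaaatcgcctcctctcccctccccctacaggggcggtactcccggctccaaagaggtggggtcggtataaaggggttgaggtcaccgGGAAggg
The SPIB stretch held 0 cores, that of ETS2 held 3 and that of ELF1 held 5. Over 35116 such windows of all genes, 92.7% held the core on either strand, with a median of 3. Of the 9 genes, 6 had an entry, and ETV6, ELK3 and GABPA, whose stretches are not printed, held 4, 2 and 1. None of the 6 held GGAANNGAAA, an ETS-IRF composite spelling, which 2.41% of windows hold, or GAAANNGAAA, an IRF spelling, which 3.02% hold (both strands searched). The GABPA window held 1 CCGGAAGT, an extended ETS site that contains the core GGAA and is found in 3.42% of windows. The RefSeq start lies 54 bases inside the gene span given here for ELF1 and 402 bases inside that for GABPA. The windows of these genes therefore reach into those spans. A match or its absence describes these letters in this window alone.

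SPIB encodes Spi-B, the lymphoid relative of PU.1, and was by far the most abundant of the 9 per transcript length. It lies on chromosome 19 from 50418938 to 50431314 (plus strand). In IRF4 shRNA libraries its lowest, median and highest levels were 2319, 2359 and 2587 CPM, against 2600, 2767 and 3179 CPM in controls. The groups did not overlap, with the lowest control just above the highest IRF4 shRNA library. SPIB averaged 2412 ± 114 CPM with IRF4 shRNA and 2817 ± 218 CPM in controls (SD, n = 6 each), or -0.22 in log2 fold change (SE 0.05, adjusted p = 0.0015 by edgeR). Exact two-sided permutation of its log2 CPM, on the TMM scale, gave p = 0.00216, the smallest it can give for 6 against 6. With counts summed per group and series, the edgeR call was lost (-0.22, edgeR adjusted p = 0.0595). SPIB was 1.17-fold lower, while IRF4 in the same libraries was 2.42-fold lower.

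SPIB fell in both series. It changed by -0.16 on the log2 scale in series 1 (SE 0.04, edgeR adjusted p = 0.0065) and -0.28 in series 2 (SE 0.07, edgeR adjusted p = 0.0116). The difference between them, -0.14, did not pass (edgeR interaction adjusted p = 0.308). The call in series 1 was lost with library size alone (-0.09, edgeR adjusted p = 0.101). That in series 2 was lost without IRF4 shRNA replicate 5 or 6 (-0.25 each, edgeR adjusted p = 0.0613 and 0.0593). The 2 highest controls were replicates 5 and 6, at 2955 and 3179 CPM, the libraries in which GC-rich transcripts were high, and the SPIB transcript has 56.8% GC. With the GC trend removed, SPIB stood at -0.22 in series 1 and -0.22 in series 2.

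SPI1 encodes PU.1, which directs myeloid and early B cell development and binds nearly the same DNA as Spi-B. It lies on chromosome 11 from 47354860 to 47378547 (minus strand). In series 1 it had 47.8, 45.6 and 46.6 CPM with IRF4 shRNA, against 11.4, 9.12 and 8.72 CPM in controls. In series 2 it had 31.1, 27.6 and 29.04 CPM with IRF4 shRNA, against 10.9, 15.6 and 15.3 CPM in controls. The groups were far apart in both series, with the highest control at 15.6 CPM and the lowest IRF4 shRNA library at 27.6 CPM. Over 12 libraries SPI1 averaged 38.0 ± 9.63 CPM with IRF4 shRNA and 11.8 ± 2.97 CPM in controls (SD, n = 6 each), 3.21-fold higher. On the log2 scale this was 1.68 (SE 0.18, adjusted p = 2.23e-06 by edgeR), with an exact two-sided permutation p of 0.00216, the smallest possible.

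The SPI1 change was 4.79-fold in series 1 and 2.10-fold in series 2. The log2 fold changes were 2.25 (SE 0.09, edgeR adjusted p = 1.48e-09) and 1.08 (SE 0.13, edgeR adjusted p = 0.000315), a difference of -1.19 between series 2 and series 1 (SE 0.17, edgeR interaction adjusted p = 0.0030). SPI1 has the highest transcript GC of the 9 genes, 65.1%, and its level moved with the GC trend. With that trend removed, the series 1 libraries had 40.4, 40.5 and 40.04 CPM with IRF4 shRNA, against 11.6, 11.3 and 11.3 CPM in controls. The series 2 libraries then had 33.4, 31.3 and 33.2 CPM with IRF4 shRNA, against 12.9, 12.2 and 11.4 CPM in controls. The libraries drew together within each group, and no IRF4 shRNA library came near a control. The log2 fold changes became 1.83 and 1.43 and the difference between series -0.40 (edgeR interaction adjusted p = 0.0078). Without controls 5 and 6 the difference was -0.83 (edgeR interaction adjusted p = 0.0136).

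PU.1 is also known for its high level in myeloid cells, so the 4 myeloid markers were read beside SPI1. Their summed level was 1.44 to 1.91 CPM with IRF4 shRNA and 0.445 to 1.16 CPM in controls, and 0 of 4 averaged at least 1 CPM over the 12 libraries. ITGAM, an integrin chain, was at 1.16 CPM with IRF4 shRNA and 0.284 CPM in controls. CD14, CSF1R and LYZ averaged 0.204, 0.134 and 0.208 CPM with IRF4 shRNA, and 0.216, 0.149 and 0.0201 CPM in controls. CD14 and ITGAM were above 0 in every library, and LYZ and CSF1R were at 0 in at least 1. Only 1 of 4 T cell markers (CD3E) and 2 of 3 NK markers had a row. The sums of these were 0 to 0.0306 CPM in every library. Those for epithelial markers were 0.0306 to 0.168 CPM with IRF4 shRNA and 0.174 to 0.457 CPM in controls. The 2 fibroblast markers summed to 5.89 to 9.74 CPM with IRF4 shRNA and 3.73 to 5.18 CPM in controls, with PDGFRB at 2.78 CPM with IRF4 shRNA and 0.130 CPM in controls, and the part of such cells in the ETS values was not tested.

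**Figure D2:**
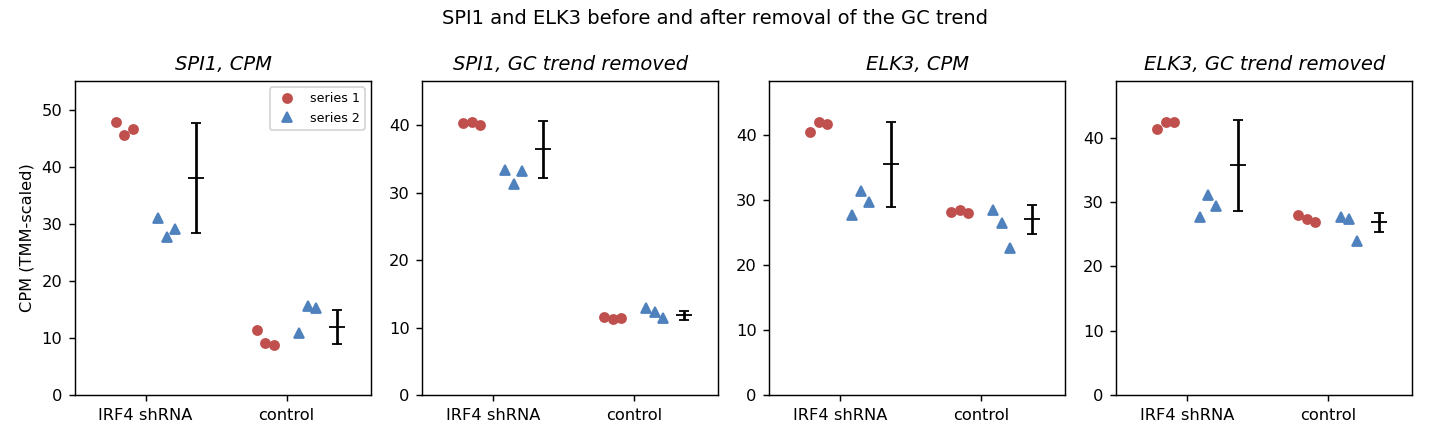
SPI1 and ELK3 in each library before and after removal of the trend of each library with transcript GC content (CPM on TMM-scaled library sizes, axes from 0), IRF4 shRNA left of control, series as separate markers. SPI1 in the IRF4 shRNA libraries of series 1 is at 45.6 to 47.8 CPM before removal and 40.04 to 40.5 CPM after it. ELK3 in IRF4 shRNA libraries is at 40.4 to 42.0 CPM in series 1 and 27.7 to 31.5 CPM in series 2, and stays split after removal.

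The balance of PU.1 and Spi-B transcripts, taken within each library, differed between the groups. SPI1 minus SPIB, in log2 CPM, averaged -6.03 ± 0.38 with IRF4 shRNA and -7.92 ± 0.25 in controls (SD, n = 6 each), and this quantity does not depend on library scaling. The difference of 1.89 gave p = 0.00216 in an exact two-sided permutation test, the smallest possible. It was 2.42 in series 1 and 1.37 in series 2, where the exact permutation p of 0.1 is the smallest that 3 against 3 can give. With the GC trend removed the difference over 12 libraries was 1.84. Most of the 1.89 is the rise of SPI1, which alone changed by 1.68 on the log2 scale. Per transcript length (counts per kilobase scaled to 1e6 in all, TPM), SPIB remained 24.8 ± 6.35 times as abundant as SPI1 with IRF4 shRNA and 91.3 ± 15.8 times in controls. Within IRF4 shRNA libraries this ratio was 19.1 ± 0.572 in series 1 and 30.6 ± 0.661 in series 2, and within controls it was 103 ± 10.3 in series 1 and 80.0 ± 11.5 in series 2 (SD, n = 3 each). SPIB stood at 5.68 ± 0.943 times the IRF4 level with IRF4 shRNA and 2.68 ± 0.268 times in controls.

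ETS1 and FLI1 are neighbours on chromosome 11 and moved in opposite directions. ETS1, whose loss in mice lets B cells become plasma cells too readily, spans 128458761 to 128587558 (minus strand). FLI1, a factor of blood cell and megakaryocyte development, spans 128686535 to 128813267 (plus strand), and 99.0 kb separate them. The lowest, median and highest levels of ETS1 were 296, 305 and 324 CPM with IRF4 shRNA, against 326, 356 and 373 CPM in controls. Those of FLI1 were 40.1, 41.8 and 44.6 CPM with IRF4 shRNA, against 28.2, 32.2 and 34.6 CPM in controls. Neither gene overlapped between groups on the TMM scale. For ETS1 the lowest control, replicate 5, came within a few CPM of the highest IRF4 shRNA library, and its separation depends on that scaling. Per transcript length, not scaled by TMM, the ETS1 ranges overlapped, at 128 to 142 TPM with IRF4 shRNA and 125 to 149 TPM in controls. ETS1 averaged 308 ± 10.5 CPM with IRF4 shRNA and 352 ± 17.5 CPM in controls (SD, n = 6 each), or -0.19 on the log2 scale (SE 0.04, adjusted p = 0.0005 by edgeR). This call was lost with counts summed per group and series (-0.19, edgeR adjusted p = 0.0922). FLI1 averaged 42.0 ± 1.48 CPM with IRF4 shRNA and 31.8 ± 2.61 CPM in controls (SD, n = 6 each), 1.32-fold higher, or 0.40 on the log2 scale (SE 0.05, adjusted p = 1.73e-05 by edgeR). Per length, ETS1 was 5.93 ± 0.357 times FLI1 with IRF4 shRNA and 8.98 ± 0.722 times in controls.

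FLI1 changed by nearly the same amount in both series, 0.41 in series 1 (edgeR adjusted p = 0.000542) and 0.39 in series 2 (edgeR adjusted p = 0.0022). For ETS1 the log2 fold change was -0.28 in series 1 (edgeR adjusted p = 4.45e-05) and -0.11 in series 2 (edgeR adjusted p = 0.120), and the difference of 0.15 did not pass (edgeR interaction adjusted p = 0.102). In series 2 ETS1 had 324, 315 and 300 CPM with IRF4 shRNA, against 357, 326 and 337 CPM in controls. On the TMM scale the groups did not overlap there either. Per length, not scaled by TMM, ETS1 of series 2 was higher with IRF4 shRNA, at 138 ± 4.42 TPM against 131 ± 8.87 TPM in controls (SD, n = 3 each). Its log2 fold change in series 2 stayed negative, from -0.19 to -0.04, under all 13 alternatives run, library size alone among them. With the GC trend removed ETS1 passed in series 2 at -0.16 (edgeR adjusted p = 0.0104), and without controls 5 and 6 at -0.19 (edgeR adjusted p = 0.0024). SENCR, a long non-coding RNA antisense to FLI1, averaged 4.0 counts with IRF4 shRNA and 1.17 counts in controls, while FLI1 held 8996 counts summed over IRF4 shRNA libraries and 6313 over controls.

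ETS2, a close relative of ETS1 whose activity is raised by MAP kinase phosphorylation, lies on chromosome 21 from 38805183 to 38824955 (plus strand). Its lowest, median and highest levels were 21.7, 23.7 and 24.5 CPM with IRF4 shRNA, against 26.6, 29.7 and 29.9 CPM in controls. The groups did not overlap, and 5 of 6 controls lay between 28.8 and 29.9 CPM, with replicate 2 below them. ETS2 averaged 23.2 ± 1.18 CPM with IRF4 shRNA and 29.1 ± 1.30 CPM in controls (SD, n = 6 each), 1.25-fold lower. The change of -0.32 on the log2 scale (SE 0.05, adjusted p = 3.98e-05 by edgeR) was the steepest fall of the 9 genes. It was -0.26 in series 1 (edgeR adjusted p = 0.0042) and -0.38 in series 2 (edgeR adjusted p = 0.0024), and the difference of -0.14 did not pass (edgeR interaction adjusted p = 0.325).

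ELF1, an activator of many lymphocyte genes, rose in both series. It lies on chromosome 13 from 40931924 to 41061440 (minus strand). The lowest, median and highest levels were 162, 166 and 171 CPM with IRF4 shRNA, against 115, 129 and 140 CPM in controls. The IRF4 shRNA libraries were close to each other and all above the controls, among which replicates 5 and 6 were lowest at 116 and 115 CPM. ELF1 averaged 166 ± 2.89 CPM with IRF4 shRNA and 128 ± 10.7 CPM in controls (SD, n = 6 each), 1.30-fold higher, or 0.38 on the log2 scale (SE 0.05, adjusted p = 1.2e-05 by edgeR). The change was 0.28 in series 1 (edgeR adjusted p = 0.000214) and 0.49 in series 2 (edgeR adjusted p = 0.000249). The ELF1 transcript is GC-poor at 38.1%, and with the GC trend removed the log2 fold changes were 0.42 and 0.40. The difference between series, 0.18, did not pass (edgeR interaction adjusted p = 0.103).

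ELK3 and ETV6, both known as repressors, moved in series 1 and did not pass in series 2. ELK3, a ternary complex factor that binds beside SRF, lies on chromosome 12 from 96194375 to 96269824 (plus strand). In series 1 it had 40.4, 42.0 and 41.7 CPM with IRF4 shRNA, against 28.2, 28.5 and 28.0 CPM in controls. In series 2 it had 27.7, 31.5 and 29.6 CPM with IRF4 shRNA, against 28.4, 26.5 and 22.6 CPM in controls. The groups were far apart in series 1 and overlapped in series 2, where IRF4 shRNA replicate 4 lay below control 4. ELK3 changed by 0.55 on the log2 scale in series 1 (SE 0.05, edgeR adjusted p = 2.32e-06), 0.21 in series 2 (SE 0.09, edgeR adjusted p = 0.110) and 0.39 over 12 libraries (SE 0.11, edgeR adjusted p = 0.0069). The difference between series was -0.36 (SE 0.10, edgeR interaction adjusted p = 0.0390), and -0.46 with the GC trend removed (edgeR interaction adjusted p = 0.0042).

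The ELK3 difference between series did not keep its call when most single libraries were left out. Left out in turn, controls 2, 3 and 5 and each of the 6 IRF4 shRNA libraries gave an adjusted p above 0.05, over a range of values from -0.45 to -0.29 (edgeR interaction adjusted p from 0.0149 to 0.0915 over the 12 libraries left out). In series 2 alone, ELK3 passed without control 4 (0.27, edgeR adjusted p = 0.0132). Over 12 libraries its call was lost with counts summed per group and series (0.40, edgeR adjusted p = 0.142).

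ETV6, a repressor needed for blood stem cells and often fused to other genes in leukaemia, lies on chromosome 12 from 11649674 to 11895377 (plus strand). In series 1 it had 19.2, 19.4 and 17.8 CPM with IRF4 shRNA, against 24.4, 26.9 and 24.6 CPM in controls. In series 2 it had 22.8, 23.4 and 23.6 CPM with IRF4 shRNA, against 23.9, 22.4 and 23.5 CPM in controls. ETV6 was lower in every IRF4 shRNA library of series 1, and in series 2 the groups lay within the same range. On the log2 scale ETV6 changed by -0.43 in series 1 (SE 0.07, edgeR adjusted p = 0.00017) and 0.0081 in series 2 (SE 0.06, edgeR adjusted p = 0.931). The difference between series was 0.42 (SE 0.08, edgeR interaction adjusted p = 0.0119), 0.38 with the GC trend removed (edgeR interaction adjusted p = 0.0096) and 0.39 without controls 5 and 6, where it no longer passed (edgeR interaction adjusted p = 0.0926).

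Over 12 libraries ETV6 was called at -0.21 (SE 0.07, edgeR adjusted p = 0.0309), and this call rested on series 1. It was lost without any 1 of IRF4 shRNA replicates 1, 2 and 3 (-0.17, -0.17 and -0.15, edgeR adjusted p = 0.0891, 0.0864 and 0.0873). It was also lost without control 1 (-0.21, edgeR adjusted p = 0.0505) or control 2 (-0.18, edgeR adjusted p = 0.0716), and with library size alone (-0.13, edgeR adjusted p = 0.153). Counts summed per group and series lost it too (-0.20, edgeR adjusted p = 0.292).

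GABPA, the DNA-binding subunit of GABP (nuclear respiratory factor 2) with many targets among mitochondrial genes, lies on chromosome 21 from 25734570 to 25772460 (plus strand). Its lowest, median and highest levels were 36.7, 37.1 and 39.1 CPM with IRF4 shRNA, against 29.1, 37.6 and 40.1 CPM in controls. The IRF4 shRNA libraries lay inside the range of the controls, where replicates 5 and 6 were low at 32.1 and 29.1 CPM. GABPA stood at 0.07 on the log2 scale (SE 0.07, edgeR adjusted p = 0.463), -0.05 in series 1 (edgeR adjusted p = 0.459) and 0.20 in series 2 (edgeR adjusted p = 0.0914). GABPA has the lowest transcript GC of the 9, 36.4%, and with the GC trend removed it passed over 12 libraries at 0.12 (edgeR adjusted p = 0.0168). In series 1 it then turned sign and passed at 0.12 (edgeR adjusted p = 0.0423). Without controls 5 and 6 its direction turned (-0.04). In series 2 alone it passed without control 4 (0.28, edgeR adjusted p = 0.0020). ATP5PF overlaps GABPA on the opposite strand and was higher by 0.17 (edgeR adjusted p = 0.0054). The pseudogene copy GABPAP held 384 counts per library with IRF4 shRNA and 292 in controls, so reads shared with either make the GABPA level uncertain.

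**Figure D3:**
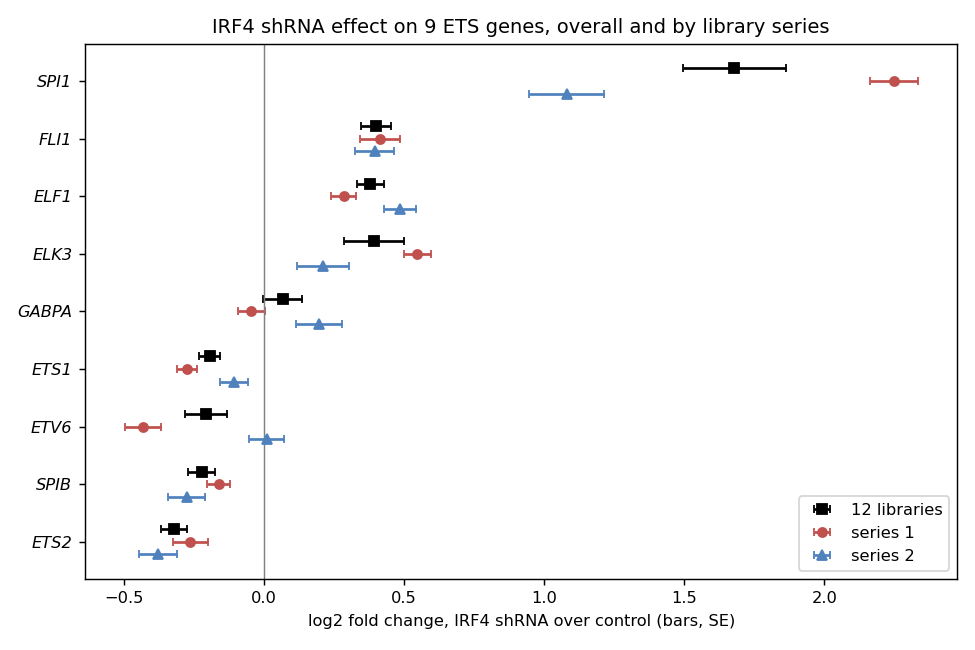
Log2 fold change of the 9 ETS genes, IRF4 shRNA over control, over 12 libraries and within each series (edgeR, bars are standard errors). SPI1 lies at 2.25 in series 1 and 1.08 in series 2, ETV6 at -0.43 and 0.0081, and the other 7 genes between -0.38 and 0.55.

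Within the series, 4 of the 9 genes rose and 4 fell in series 1, where 50.5% of all 16572 genes tested were called, 25.8% higher and 24.6% lower. In series 2, 3 rose (SPI1, FLI1 and ELF1) and 2 fell (SPIB and ETS2), where 38.1% of 16614 genes were called, 20.2% higher and 17.9% lower. On the TMM scale the groups did not overlap for 8 of the 9 genes in series 1 and 7 in series 2, beside 58.2% of all genes in series 1 (29.9% higher, 28.3% lower) and 50.3% in series 2 (26.0% higher, 24.3% lower). The test of the difference between series passed for SPI1, ELK3 and ETV6, 3 of the 9 genes, beside 13% of 17261 genes. SPI1 and ELK3 were among the 7.99% with a lower value in series 2 and ETV6 among the 5.03% with a higher one. IRF4 was lower in series 1 than in series 2 in the same libraries, as given above, and what the series number stands for cannot be told apart from it.

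Compared per transcript length, the order of the 9 genes changed in its middle. With IRF4 shRNA it ran SPIB (1435 ± 66.7 TPM), ETS1 (135 ± 4.94), ELF1 (105 ± 2.34), SPI1 (61.0 ± 15.2), FLI1 (22.8 ± 0.687), ELK3 (19.0 ± 3.43), GABPA (16.6 ± 0.483), ETS2 (13.3 ± 0.566) and ETV6 (7.93 ± 0.984). In controls SPIB (1494 ± 78.3 TPM), ETS1 (138 ± 9.66) and ELF1 (72.2 ± 7.53) led in the same order, and SPI1 (16.9 ± 3.89) stood among FLI1 (15.4 ± 1.20), ETS2 (14.9 ± 0.815), GABPA (14.2 ± 2.04) and ELK3 (12.97 ± 1.39), with ETV6 last (8.18 ± 0.619). In controls each neighbouring pair from SPI1 down to ELK3 overlapped in range. With IRF4 shRNA, SPI1 stood clear of FLI1, and the pairs that overlapped were FLI1 with ELK3 and ELK3 with GABPA. SPIB took 79.0% ± 0.976 of the summed TPM of the 9 genes with IRF4 shRNA and 83.6% ± 1.53 in controls, and SPI1 took 3.36% ± 0.830 with IRF4 shRNA and 0.942% ± 0.186 in controls (SD, n = 6 each). TPM here is not scaled by TMM and serves for order within libraries.

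**Figure D4:**
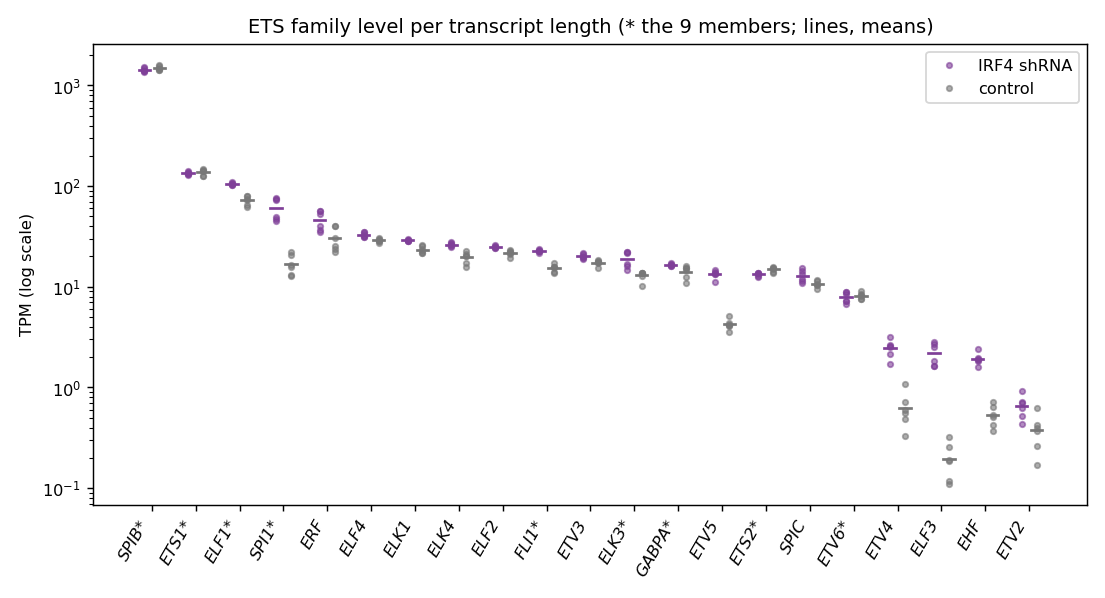
Level per transcript length (TPM, log scale) of the ETS family genes in each library, IRF4 shRNA left of control, horizontal lines at the means, an asterisk on the 9 genes described. SPIB is highest in both groups at means of 1435 and 1494 TPM, and SPI1 has means of 61.0 TPM with IRF4 shRNA and 16.9 TPM in controls.

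Of 19 other genes listed as ETS family, 15 had a row and 12 were tested. Of these 12, 5 rose, 0 fell and 7 did not pass by edgeR, beside 24.2% of all genes called higher, with a median log2 fold change of 0.35. All 12 fold changes were above 0 with edgeR and with DESeq2, so 0 were lower at an unadjusted p under 0.05 as well. ETV4 and ETV5, PEA3 group activators known as targets of ERK signalling, rose by 1.79 (edgeR adjusted p = 1.26e-05) and 1.49 (edgeR adjusted p = 1.83e-09). ETV4 stayed low, at 2.66 ± 0.559 CPM with IRF4 shRNA and 0.761 ± 0.314 CPM in controls. ETV5 averaged 24.4 ± 2.24 CPM with IRF4 shRNA and 8.69 ± 1.05 CPM in controls (SD, n = 6 each). ELF3 and EHF, known from epithelia, stayed low, at 4.85 ± 1.27 and 2.69 ± 0.360 CPM with IRF4 shRNA and 0.487 ± 0.203 and 0.831 ± 0.193 CPM in controls. They rose by 3.29 and 1.69 (edgeR adjusted p = 3.58e-08 and 3.11e-07), while the epithelial markers EPCAM, KRT8 and KRT18 were at 0.0460, 0.0598 and 0 CPM with IRF4 shRNA, and 0.0409, 0.299 and 0 CPM in controls. ELK4, a ternary complex factor like ELK3, averaged 119 ± 4.72 CPM with IRF4 shRNA and 99.6 ± 10.6 CPM in controls, and rose by 0.26 (edgeR adjusted p = 0.0026).

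The 7 that did not pass were ELF2, ELF4, ELK1, ERF, ETV2, ETV3 and SPIC, with log2 fold changes from 0.03 to 0.62. SPIC, the third member of the PU.1 group, was at 6.49 ± 0.851 CPM with IRF4 shRNA and 5.99 ± 0.294 CPM in controls (0.12, edgeR adjusted p = 0.282). ERF, a repressor, was at 66.6 ± 1.72 CPM with IRF4 shRNA and 33.6 ± 6.07 CPM in controls of series 1 (SD, n = 3 each). In series 2 it was at 44.5 ± 3.26 CPM with IRF4 shRNA and 48.1 ± 12.7 CPM in controls (SD, n = 3 each). Over 12 libraries it stood at 0.44 (edgeR adjusted p = 0.0589), and the difference between series was -1.10 (edgeR interaction adjusted p = 0.0136). ERF has 64.0% GC, its call over 12 libraries was gained with the GC trend removed (0.41, edgeR adjusted p = 6.89e-05), and the series difference became -0.41 with that trend removed (edgeR interaction adjusted p = 0.0063) and was lost without controls 5 and 6 (-0.58, edgeR interaction adjusted p = 0.0969). Too low to be tested, ETV7 had 19 counts summed over IRF4 shRNA libraries and 1 over controls, ETV1 had 5 over IRF4 shRNA libraries and 0 over controls, and SPDEF had 2 over IRF4 shRNA libraries and 0 over controls. ERG, FEV, ETV3L and ELF5 were not analysed here.

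Genes known from the literature as targets of PU.1, Spi-B or ETS-IRF elements were read next, 19 listed and 15 tested. Of the 15, 8 rose, 3 fell and 4 did not pass, beside 24.2% of all genes called higher and 23.9% lower, with a median log2 fold change of 0.20. The 4 tested genes named next had the smallest p and all rose, so the 3 that fell are not shown by them. CD72, a B cell inhibitory receptor, averaged 394 ± 11.3 CPM with IRF4 shRNA and 205 ± 8.49 CPM in controls, a log2 fold change of 0.94 (edgeR adjusted p = 9.53e-12). P2RY10, a lysophosphatidylserine receptor described as a PU.1 and Spi-B target in mouse B cells, averaged 23.8 ± 1.43 CPM with IRF4 shRNA and 6.27 ± 1.02 CPM in controls, 1.93 on the log2 scale (edgeR adjusted p = 2.28e-10). SYK, the B cell receptor kinase, rose by 0.34 (edgeR adjusted p = 2.08e-07). ISG15, an interferon-induced modifier, rose by 3.73 (edgeR adjusted p = 4.72e-09), 4.42 in series 1 and 3.10 in series 2. Not tested were IL1B, with 26 counts summed over IRF4 shRNA libraries and 1 over controls, and GRAP2, with 3 over IRF4 shRNA libraries and 13 over controls, while IGLL1 and VPREB1 were not analysed here.

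Of 9 GABP subunits and reported targets, 2 rose, 2 fell and 5 did not pass, so 4 of 9 were called, a share close to the 48.2% of all genes, with a median of -0.05. The subunits GABPB1 and GABPB2, which pair with GABPA, moved apart. GABPB1 averaged 16.8 ± 0.893 CPM with IRF4 shRNA and 19.8 ± 0.677 CPM in controls (-0.24, edgeR adjusted p = 0.000695), and GABPB2 averaged 5.06 ± 0.391 CPM with IRF4 shRNA and 3.04 ± 0.659 CPM in controls (0.73, edgeR adjusted p = 0.000171). COX4I1, a subunit of cytochrome oxidase, fell by 0.31 (edgeR adjusted p = 3.14e-07), and SKP2, a ubiquitin ligase subunit, rose by 0.20 (edgeR adjusted p = 0.0206), a call lost without controls 5 and 6 (0.13, edgeR adjusted p = 0.073).

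Of 14 DNA-binding partners and cofactors of ETS factors, 5 rose, 5 fell and 4 did not pass, beside 48.2% of all genes called (24.2% higher, 23.9% lower), with a median of 0.05. FOS, an AP-1 subunit and a classic target of ternary complex factors, stayed low at 2.18 ± 0.383 CPM with IRF4 shRNA and 0.234 ± 0.0708 CPM in controls, and rose by 3.19 (edgeR adjusted p = 4.71e-09). POU2AF1, the B cell octamer coactivator, averaged 161 ± 4.48 CPM with IRF4 shRNA and 255 ± 11.7 CPM in controls, a log2 fold change of -0.66 (edgeR adjusted p = 8.3e-10). RUNX1 and RUNX3, which bind beside ETS1 in lymphoid enhancers, moved in opposite directions. RUNX1 averaged 120 ± 8.13 CPM with IRF4 shRNA and 161 ± 6.20 CPM in controls (-0.41, edgeR adjusted p = 2.28e-06), and RUNX3 averaged 62.3 ± 3.23 CPM with IRF4 shRNA and 46.2 ± 4.41 CPM in controls (0.43, edgeR adjusted p = 2.4e-05).

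The genes most like SPIB over the 12 libraries, among 13831 with a mean of at least 1 CPM, were GOLGA2, WNT10A and PFKP (Pearson's r of log2 CPM 0.980, 0.967 and 0.967). Those most like SPI1 were ZFYVE21, TTYH3 and CXXC1 (0.995, 0.995 and 0.994). TTYH3 averaged 73.0 ± 17.6 CPM with IRF4 shRNA and 22.3 ± 6.70 CPM in controls (SD, n = 6 each), and its transcript has 65.1% GC, as does that of SPI1. These are descriptions over 12 libraries that share 2 groups, 2 series and the GC trend.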

How the data were processed

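RNA with poly(A) from 12 TMD8 libraries was sequenced as paired reads of 100 bp from a stranded TruSeq kit, per the labels' protocols. STAR, HTSeq and hg38 were used, per the submitters' processing notes. The annotation release and whether counting used strand are not given in the sources used here. The table deposited by the authors holds estimated counts (expected counts, not normalized) for 26318 genes. Of its values 66.6% were whole at a tolerance of 1e-06, so reads shared by similar genes may have been split. Libraries of 1 group and series, taken in pairs, differed beyond counting noise (chi-square per degree of freedom 2.73 to 31.9, 12 pairs, genes with at least 20 counts), and each library counted as 1 sample.

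Counts were rounded and tested with edgeR 4.0.16 in R 4.3.3 (quasi-likelihood, TMM, filterByExpr with a minimum count of 10, Benjamini-Hochberg over all genes tested, called under 0.05), without covariates over 12 libraries and within each series, and as an interaction (series 2 minus series 1). The steps were tested on simulated data in which few genes changed, scatter was set alike for all genes and no GC trend was added. Those settings differ from these data. The SE of a fold change is the log2 fold change over the root of F. Log2 CPM used a prior count of 2, and scipy 1.17.1 gave the exact permutation tests. Transcript length and GC came from the longest basic transcript in GENCODE release 29 (94.3% of genes). The GC trend was removed by a lowess offset per library (span 0.3), fitted to deviations from the mean over all libraries of the fit. Gene ends in the table lie 1 past the last base and were reduced by 1. Alternatives were DESeq2 1.42.0, its size factors, library size alone, no filter, GC removal, each library left out, controls 5 and 6 left out, replicate blocks, series as a covariate, summed counts and a prior count of 0.5.

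Named were the 9 ETS genes, IRF4, every other ETS gene tested, up to 4 genes with the smallest p of each list, and the 3 genes most like SPIB and SPI1. The members and lists were chosen with earlier results of these data known.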

Additional observations from a re-analysis of the deposited data

Results flagged for a closer look

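The effect of IRF4 shRNA differed between series 2 and series 1 by the edgeR interaction test for 7 named genes. On the log2 scale, series 2 minus series 1, the difference was -1.19 for SPI1, 0.42 for ETV6, -0.36 for ELK3, -1.10 for ERF, -1.34 for ISG15, 0.22 for RUNX1 and 0.46 for IRF4. The adjusted p-values of this test were 0.0030, 0.0119, 0.0390, 0.0136, 0.0116, 0.0356 and 0.0011 in that order. With the GC trend removed, the difference was -0.40 for SPI1, -0.41 for ERF and -0.71 for ISG15, each still past the threshold, and 0.17 for RUNX1, no longer past it (edgeR interaction adjusted p = 0.0782). Without controls 5 and 6, ETV6 (0.39), ERF (-0.58), ISG15 (-0.78) and RUNX1 (0.16) did not pass, with edgeR interaction adjusted p = 0.0926, 0.0969, 0.106 and 0.312 in that order. RUNX1 also lost its call without the filter on low counts (adjusted p = 0.05001), with the replicate block by library name (adjusted p = 0.0541), without controls 2, 3, 5 or 6 and without each of the 6 IRF4 shRNA libraries, at values from 0.19 to 0.24 (edgeR interaction adjusted p from 0.0064 to 0.115 over the 12 libraries left out). ELK3 lost its call without controls 2, 3 or 5 and without each of the 6 IRF4 shRNA libraries.

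In 4 groups of 6 libraries, of 68 examined, 1 library stood apart from the other 5 by Dixon's test, which flags about 1 in 20 groups by chance. Control replicate 2 was lowest for ETS2 at 26.6 CPM, and control replicate 6 was lowest for ELK3 at 22.6 CPM. IRF4 shRNA replicate 2 was highest for COX4I1 at 287 CPM, and control replicate 1 was highest for GABPB1 at 21.1 CPM.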

How the results depend on the processing

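Over 12 libraries the count of ETS genes that rose stayed at 3 to 5, against 4, under every alternative run, and the count that fell was 3 or 4, against 4, except that it was 1 with counts summed per group and series (4 sums in all). In those sums SPIB, ETS1, ETV6 and ELK3 kept their direction and lost their calls (edgeR adjusted p = 0.0595, 0.0922, 0.292 and 0.142 in that order). Leaving out 1 library at a time gave 3 to 5 rises, against 3, and 1 to 2 falls, against 2, within series 2. For the test of the difference between series, the count higher was 1, against 1 to 4 with 1 library left out and 0 without controls 5 and 6. The count lower was 2, against 1 with library size alone, 1 with the replicate block by library name and 1 to 3 with 1 library left out. Without control 4, ELF1, ETS1 and GABPA joined the genes higher (0.24, 0.18 and 0.31) and SPIB those lower (-0.19). SPI1 minus SPIB lay between 1.82 and 2.04 under every alternative run.

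Signs turned only for values that had not passed before the alternative was applied. GABPA over 12 libraries was -0.039 without controls 5 and 6, and in series 1 it was 0.029 with library size alone and 0.12 with the GC trend removed. That last value, with its sign turned, passed as a rise (edgeR adjusted p = 0.0423). ETV6 in series 2 was -0.0025 with DESeq2 size factors, -0.0024 with DESeq2, -0.014 with the GC trend removed, -0.030 to 0.022 with 1 library left out and -0.038 without controls 5 and 6. The series difference became 0.0059 for SPIB, -0.014 for ELF1 and -0.0024 for GABPA with the GC trend removed. For FLI1 it ran from -0.104 to 0.038 with 1 library left out, above 0 without control 1 (0.038), control 6 (0.022) or IRF4 shRNA replicate 2 (0.0011).

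The replicate numbers of the labels did not pair the libraries (correlations of deviations from -0.26 to 0.13). With that number as a replicate block over 12 libraries, 4 ETS genes rose and 3 fell, ETV6 no longer passing (-0.21, edgeR adjusted p = 0.0772). Depth limited only ETS genes with a few counts, such as ETV1 and SPDEF. The alternative without controls 5 and 6 was chosen after seeing the data for series 2, the series difference and SPI1 minus SPIB.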
